A study of Rattus norvegicus with 6 samples.

Results

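The expression of Nfe2l2 and 8 antioxidant genes was examined in BRIN-BD11 cells treated with MS-275. The genes are Sod1, Sod2, Cat, Hmox1, Nqo1, Gclc, Gsr, Txn1 and Nfe2l2, picked by their Ensembl identifiers, and all 9 were found among the 22250 genes of the count tables. BRIN-BD11 is a rat line of beta cells that secretes insulin, obtained by fusing RINm5F cells with islet cells of the NEDH rat, and MS-275 (entinostat) inhibits class I histone deacetylases. RNA came from cells at passage 25, in 3 control libraries that received no inhibitor and 3 libraries of cells kept for 16 h in complete medium with 5 µM MS-275. The labels give 0.1% DMSO as the solvent of MS-275. The study's text describes the controls as given DMSO at a lower concentration than that, so if both hold, the vehicle and MS-275 cannot be told apart. The growth medium of both groups held beta-mercaptoethanol, a thiol reductant. All libraries come from a single cell line at a single dose and time. The numbered repeats are not said to be separate cultures, so p-values measure only the spread between these libraries. The tables hold identifiers without names, and the names used here are those that came with the identifiers. The insulin genes and other beta cell markers were therefore not analysed here.

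Cells make superoxide and hydrogen peroxide as by-products of respiration and fatty acid oxidation. Superoxide dismutases convert superoxide to hydrogen peroxide, which catalase and the glutathione and thioredoxin systems remove. Nfe2l2 encodes NRF2, a transcription factor that is held low by KEAP1 and degraded in unstressed cells. When oxidants or electrophiles modify KEAP1, NRF2 accumulates and binds antioxidant response elements near genes such as Nqo1, Hmox1, Gclc, Gsr and Txn1. NRF2 activity is set mostly by protein stability, which RNA counts do not measure. Pancreatic beta cells are known for low catalase and glutathione peroxidase, and the study asked about oxidant removal in MS-275-treated beta cells exposed to palmitate. The labels of these libraries name no palmitate.

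Library depth ranged from 5230555 to 9172422 reads assigned to genes. The 9 genes together took between 0.123% and 0.144% of them in the controls and between 0.151% and 0.204% with MS-275. Over 3 libraries each, the mean share ± SD was 0.131% ± 0.0113 without and 0.178% ± 0.0264 with MS-275. A pair of libraries lay toward the other group. Over the genes called at a 2-fold change without the library in question, control replicate 1 was displaced toward the MS-275 libraries by a median of 13.8% of the distance, and MS-275 replicate 3 was displaced toward the controls by 13.4%. In the other 4 libraries the displacement was between -6.42% and -1.0%. Among the antioxidant genes, control replicate 1 was the highest control for 8 of the 9 and MS-275 replicate 3 was the lowest treated library for all 9. MS-275 replicate 1 was also the highest treated library for 6 of the 9, and control replicate 3 the lowest control for 6. An order by replicate number shared by both groups and a displacement of single libraries cannot be told apart here. For Sod1 and Cat, whose treated means were below the control means, a low value in MS-275 replicate 3 lies away from the controls, not toward them. Values without control replicate 1 and MS-275 replicate 3 are given beside the results below. Both libraries were picked for lying toward the other group, so leaving them out widens most differences by construction. These values are no separate support for a call.

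Most of the set rose with MS-275. Nqo1, Gclc, Hmox1, Nfe2l2, Txn1 and Sod2 were higher in the treated libraries, whereas Gsr, Sod1 and Cat did not pass the test. That is 6 of 9 genes higher and 0 lower, all 9 having passed the filter on low counts, at an adjusted p under 0.05 by the quasi-likelihood test of edgeR, fitted over 12596 genes. MS-275 changed much of the transcriptome, and among all tested genes 32.1% were called higher and 31.5% lower. This balance depended on the scaling, with 4593 genes higher and 3287 lower with upper-quartile scaling and 3661 higher and 4451 lower with library sizes alone, against 4039 and 3966 with TMM. Of the 9 genes, 3 (Nqo1, Gclc and Hmox1) were also at least 2-fold higher, against 13.9% of all tested genes, and 0 were 2-fold lower, against 5.16%. The median log2 fold change was 0.79 over the 9 genes and -0.01 over all tested genes. In the 6 genes called higher, every treated library lay above every control library, which held for 34.1% of all tested genes, and in 0 of the 9 every treated library lay below, which held for 34% of them. With 3 libraries against 3, an exact permutation test cannot give a two-sided p under 0.1, and each of these 6 genes gave that value. Counts are relative to the library's total, so in these bulk samples a change in RNA per cell and a change in the mix of cells cannot be told apart.

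**Figure D1:**
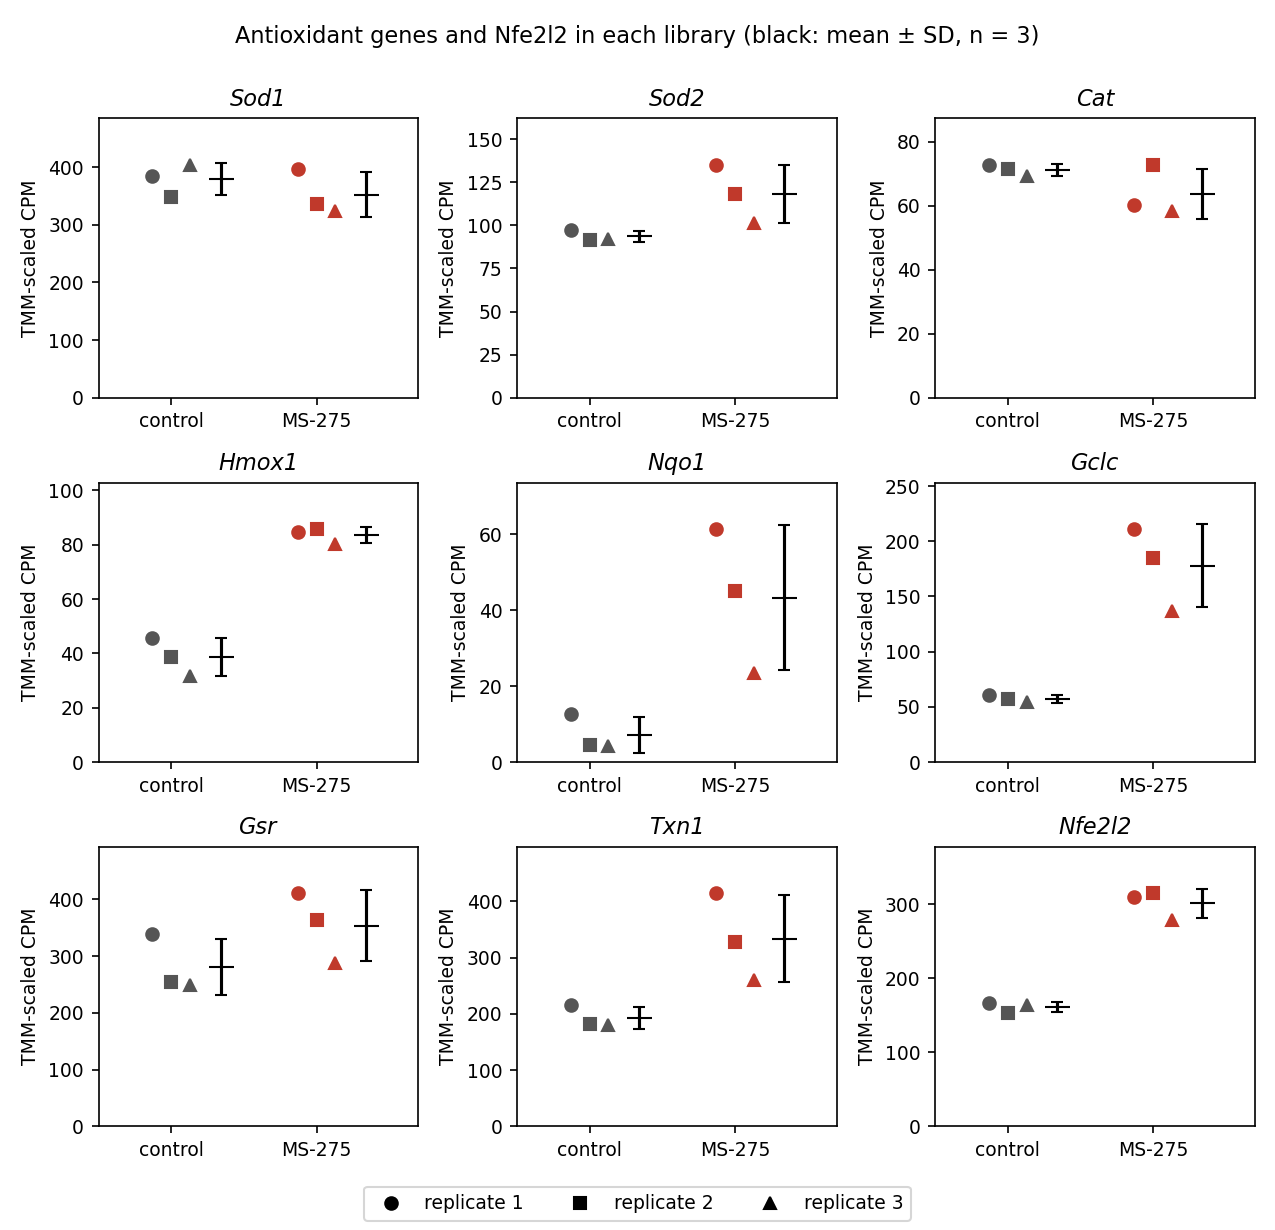
TMM-scaled CPM of each gene on a linear axis from 0, for 3 control libraries (grey) and 3 MS-275 libraries (red), with marker shape for the replicate number and black bars for the mean ± SD. The groups do not overlap for Sod2, Hmox1, Nqo1, Gclc, Txn1 and Nfe2l2, and the triangle of MS-275 replicate 3 is the lowest treated point in all 9 panels.

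**Figure D2:**
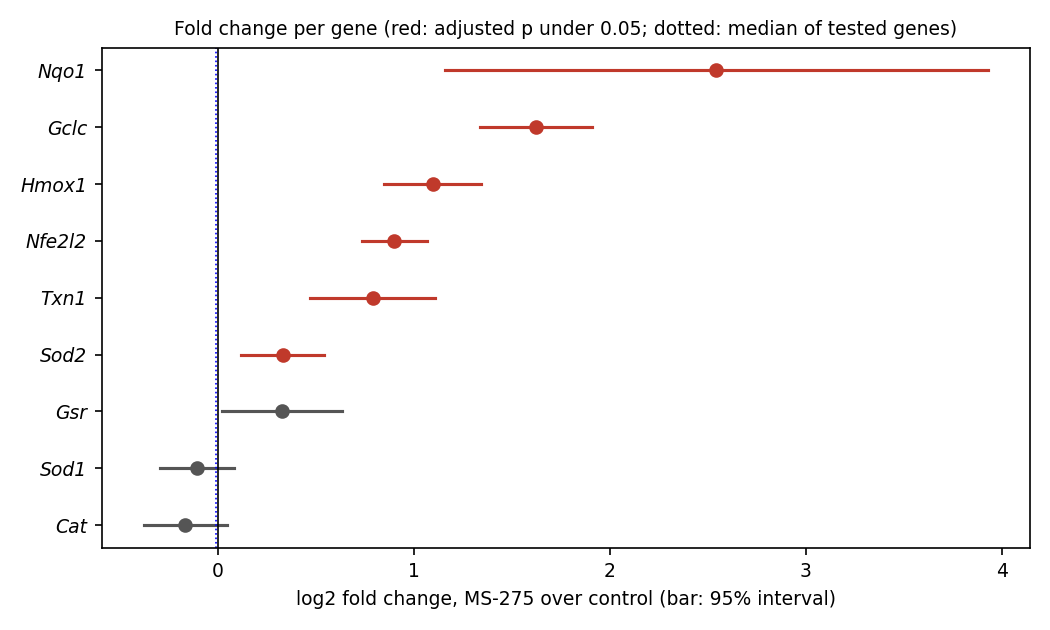
Log2 fold change of MS-275 over control for each gene (points) with its 95% interval (bars) from edgeR's quasi-likelihood fit, in red where the adjusted p was under 0.05. Nqo1 has the highest value, 2.55, and by far the widest interval, and Sod1 and Cat lie at -0.11 and -0.16 with intervals that include 0.

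Promoters are shown for 4 of the genes, to set the factor and the pair with the largest increases beside Sod1, which did not pass the test. The window runs from 250 bases before to 50 bases after the start site in RefSeq's annotation of GRCr8. This is not the assembly on which the reads were counted. The set of promoter sequences used here held 7 of the 9 genes. Hmox1 and Gsr are in the annotation but not in that set. Capitals mark matches, on either strand, to TGACNNNGC (the core of the antioxidant response element), GGGCGG (the GC box, read by Sp1 and its relatives) and TATAAA (the letters of the TATA box). Each sequence is written 5′ to 3′ on the strand of the gene.
Nfe2l2, chr3:81028950-81029249, minus strand: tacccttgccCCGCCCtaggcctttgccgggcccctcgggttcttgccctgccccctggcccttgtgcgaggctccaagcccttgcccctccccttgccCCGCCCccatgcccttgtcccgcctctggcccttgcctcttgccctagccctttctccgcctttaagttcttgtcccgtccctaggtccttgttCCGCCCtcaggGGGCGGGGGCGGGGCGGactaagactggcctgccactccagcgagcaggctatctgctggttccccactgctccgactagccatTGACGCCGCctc
Gclc, chr8:87510226-87510525, plus strand: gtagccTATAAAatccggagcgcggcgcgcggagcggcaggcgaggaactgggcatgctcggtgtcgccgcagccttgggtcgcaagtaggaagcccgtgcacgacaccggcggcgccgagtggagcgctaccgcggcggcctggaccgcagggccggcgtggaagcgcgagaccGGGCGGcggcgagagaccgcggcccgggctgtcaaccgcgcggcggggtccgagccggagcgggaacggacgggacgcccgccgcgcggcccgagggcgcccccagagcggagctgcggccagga
Nqo1, chr19:52220218-52220517, minus strand: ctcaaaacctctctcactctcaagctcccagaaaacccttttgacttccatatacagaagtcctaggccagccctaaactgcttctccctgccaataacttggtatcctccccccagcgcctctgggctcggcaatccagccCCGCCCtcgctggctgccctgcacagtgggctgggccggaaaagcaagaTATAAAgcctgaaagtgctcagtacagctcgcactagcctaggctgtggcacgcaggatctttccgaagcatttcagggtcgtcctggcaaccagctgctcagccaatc
Sod1, chr11:42942573-42942872, plus strand: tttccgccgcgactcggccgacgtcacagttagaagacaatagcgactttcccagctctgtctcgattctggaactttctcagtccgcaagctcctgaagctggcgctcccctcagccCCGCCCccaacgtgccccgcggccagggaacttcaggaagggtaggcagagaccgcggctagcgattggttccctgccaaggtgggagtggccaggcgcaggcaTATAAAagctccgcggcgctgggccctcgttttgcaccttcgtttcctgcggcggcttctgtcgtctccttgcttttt

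TGACNNNGC was found in 2 of the 7 promoters, those of Nfe2l2 and Sod2, and in 12.1% of all 33469 promoters of the same length. In Nfe2l2 the match, TGACGCCGC, lies 38 to 46 bases after the first transcribed base. In Sod2 it is on the opposite strand, at -35 to -27 from the first transcribed base. None of the 7 held TGACTCA, the AP-1 site, which 4.63% of all promoters hold and which overlaps TGACNNNGC when GC follows it. The GC box was in 6 of 7, every one but that of Cat, against 33.1% of all promoters and 41.8% of those of protein-coding genes. The Nfe2l2 window held 6 matches to it and the Txn1 window 4, some of them overlapping. TATAAA was in 4 of 7 (Gclc, Nqo1, Sod1 and Txn1), against 14.2% of all promoters. The match began at -28 from the first transcribed base in Sod1, close to where a TATA box usually lies, and at -59 in Nqo1, -112 in Txn1 and -244 in Gclc. The GC box and TATAAA were added after the sequences were seen. The median GC content of the 7 windows was 68.0%, with a median of 26 CpG dinucleotides, against 55% and 11 over the promoters of protein-coding genes and 51.7% and 7 over all promoters. Nqo1 was the poorest of the 7 in both, with 56.3% GC and 9 CpG, and Gclc the richest, with 76.7% and 52. A window this short leaves out distal elements, and no binding or acetylation was measured at these genes here.

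Nfe2l2 (ENSRNOG00000001548), which encodes the factor itself, was nearly 2-fold higher with MS-275. Levels are given as CPM, counts per 1000000 reads on genes after TMM scaling of the libraries. The level of Nfe2l2 was 167, 153 and 164 CPM in control replicates 1, 2 and 3, from 1324, 1248 and 946 counts. With MS-275 it was 310.5, 315 and 279 CPM in replicates 1, 2 and 3, from 1681, 1604 and 2497 counts. The groups are far apart beside the spread within them, and Nfe2l2 had the lowest biological coefficient of variation of the 9 genes, 0.0723 against 0.0880 common to all tested genes. The log2 fold change was 0.90 (SE 0.08, edgeR adjusted p = 1.25e-07), a fold of 1.87 with a 95% interval of 1.66 to 2.10. Of all tested genes, 15.6% had a higher log2 fold change. Without control replicate 1 and MS-275 replicate 3 together it was 1.00.

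Gclc and Gsr serve glutathione, the main thiol of the cell. Gclc (ENSRNOG00000006302) encodes the catalytic subunit of glutamate-cysteine ligase, the rate-limiting enzyme of glutathione synthesis, and it rose about 3-fold. The control libraries gave 60.8, 57.0 and 54.0 CPM, from 483, 464 and 312 counts. The treated libraries gave 211, 185 and 137 CPM, from 1142, 944 and 1224 counts. Even the lowest treated library was more than double the highest control. For Gclc the log2 fold change was 1.62 (SE 0.13, edgeR adjusted p = 2.04e-07), which is 3.08-fold with a 95% interval of 2.53 to 3.76. Only 7.55% of all tested genes had a higher value. Without both displaced libraries the log2 fold change of Gclc was 1.85.

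Gsr (ENSRNOG00000014915) encodes glutathione reductase, which restores oxidised glutathione with NADPH. It was measured at 338, 255 and 249.9 CPM in the controls, from 2688, 2074 and 1444 counts. The treated libraries were at 410.1, 363 and 288 CPM, from 2220, 1852 and 2574 counts. The groups overlapped, since MS-275 replicate 3 lay below control replicate 1. Gsr did not pass the test, with a log2 fold change of 0.33 (SE 0.14, edgeR adjusted p = 0.0572) and a 95% interval of 0.024 to 0.63, not adjusted for the number of genes. The call of Gsr depended on the setting. In the same test the adjusted p was 0.00327 without control replicate 1, 0.00467 without MS-275 replicate 3 and 0.00145 with a replicate block. DESeq2 gave 0.0279. Library sizes alone gave a log2 fold change of 0.26 (adjusted p = 0.133 in edgeR's test). Leaving out MS-275 replicate 1 gave 0.21 (adjusted p = 0.257 in that test). Gsr passed in 5 of 12 alternatives. Without both displaced libraries its log2 fold change was 0.63.

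Nqo1 and Hmox1 are enzymes commonly used to read NRF2 activity. Nqo1 (ENSRNOG00000012772) encodes NAD(P)H quinone oxidoreductase 1, which reduces quinones without releasing the semiquinone radical. It was the gene with the fewest counts of the 9 and the largest increase. Its control libraries held 100, 36 and 24 counts, or 12.6, 4.42 and 4.15 CPM. The treated libraries held 332, 230 and 209 counts, or 61.3, 45.1 and 23.4 CPM. Every treated library was above every control, but both groups were wide, with control replicate 1 well above the other controls and MS-275 replicate 3 well below the other treated libraries. This gave Nqo1 a log2 fold change of 2.55 (SE 0.56, edgeR adjusted p = 0.00862), a fold of 5.84 with a 95% interval of 2.24 to 15.2. Only 3.33% of tested genes had a higher log2 fold change. The biological coefficient of variation of Nqo1 was 0.453, the highest of the 9. Without control replicate 1 the log2 fold change was 3.29 (adjusted p = 0.00106 in the same test), and without both displaced libraries it was 3.64. It was lower without MS-275 replicate 1, at 2.2 (adjusted p = 0.043 in that test), without control replicate 2, at 2.27 (adjusted p = 0.0251), and without control replicate 3, at 2.32 (adjusted p = 0.0207).

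Hmox1 (ENSRNOG00000014117) encodes the inducible haem oxygenase, which breaks haem into biliverdin, iron and carbon monoxide. In the controls it was at 45.7, 38.7 and 31.8 CPM, from 363, 315 and 184 counts. With MS-275 it was at 84.6, 85.7 and 80.3 CPM, from 458, 437 and 718 counts. The treated libraries were close to each other, with a coefficient of variation of 3.45%, whereas that of the controls was 17.9%. Hmox1 had a log2 fold change of 1.10 (SE 0.12, edgeR adjusted p = 8.84e-07), a fold of 2.14 with a 95% interval of 1.80 to 2.54. Of all tested genes, 12.6% had a higher value. Leaving out both displaced libraries gave 1.28 on the log2 scale.

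Txn1 (ENSRNOG00000012081) encodes cytosolic thioredoxin, the small dithiol protein that passes electrons to peroxiredoxins and ribonucleotide reductase. It was at 215, 182 and 180 CPM in the controls, from 1709, 1481 and 1040 counts. Treated replicates 1, 2 and 3 gave 414, 328 and 259 CPM, from 2240, 1671 and 2320 counts. The groups did not overlap, although the treated libraries were spread more widely than the controls, with coefficients of variation of 23.2% and 10.2%. The log2 fold change of Txn1 was 0.79 (SE 0.14, edgeR adjusted p = 0.000548), a fold of 1.73 with a 95% interval of 1.39 to 2.16. Without both displaced libraries it was 1.05.

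Of the dismutases, Sod2 (ENSRNOG00000019048), the manganese enzyme of the mitochondrial matrix, rose by 25.8%. Control replicates gave it 97.4, 91.3 and 92.2 CPM, from 774, 743 and 533 counts, and the treated libraries 135, 118 and 101.5 CPM, from 732, 602 and 908 counts. The groups did not overlap, with a narrow gap between MS-275 replicate 3 and control replicate 1. The log2 fold change of Sod2 was 0.33 (SE 0.10, edgeR adjusted p = 0.00876), a fold of 1.26 with a 95% interval of 1.09 to 1.46. Of all tested genes, 32.3% had a higher log2 fold change. That of Sod2 was 0.48 without both displaced libraries. RefSeq lists a pseudogene, Sod2-ps1, and whether reads of Sod2 were lost to it or gained from it was not tested.

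Sod1 (ENSRNOG00000002115), the copper and zinc enzyme of the cytosol, was at 384, 349 and 404 CPM in the controls, from 3050, 2837 and 2335 counts. With MS-275 it was at 397, 336 and 323 CPM, from 2151, 1713 and 2890 counts. The groups overlapped. For Sod1 the log2 fold change was -0.11 (SE 0.09, edgeR adjusted p = 0.314), and the 95% interval ran from -0.30 to 0.084, a change of -18.5% to 6.01% of the control level. Leaving out MS-275 replicate 1 brought a call, with a log2 fold change of -0.19 (adjusted p = 0.0366 in the same test), whereas without both displaced libraries the value was -0.018.

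Cat (ENSRNOG00000008364) encodes catalase, the haem enzyme of peroxisomes that splits hydrogen peroxide. The controls were tight, at 72.9, 71.4 and 69.2 CPM, from 579, 581 and 400 counts. The treated libraries were at 60.2, 72.8 and 58.4 CPM, from 326, 371 and 522 counts, and MS-275 replicate 2 fell inside the range of the controls. Cat had a log2 fold change of -0.16 (SE 0.10, edgeR adjusted p = 0.161), with a 95% interval of -0.38 to 0.047. As a change of the control level the interval is -23% to 3.33%, so an increase of the size seen in Sod2 lies outside it. Without both displaced libraries the log2 fold change of Cat was -0.066. It was -0.26 without MS-275 replicate 2 (adjusted p = 0.0510 in edgeR's test) and -0.23 with library sizes alone (adjusted p = 0.0538). Cat passed in 0 of 12 alternatives.

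**Figure D3:**
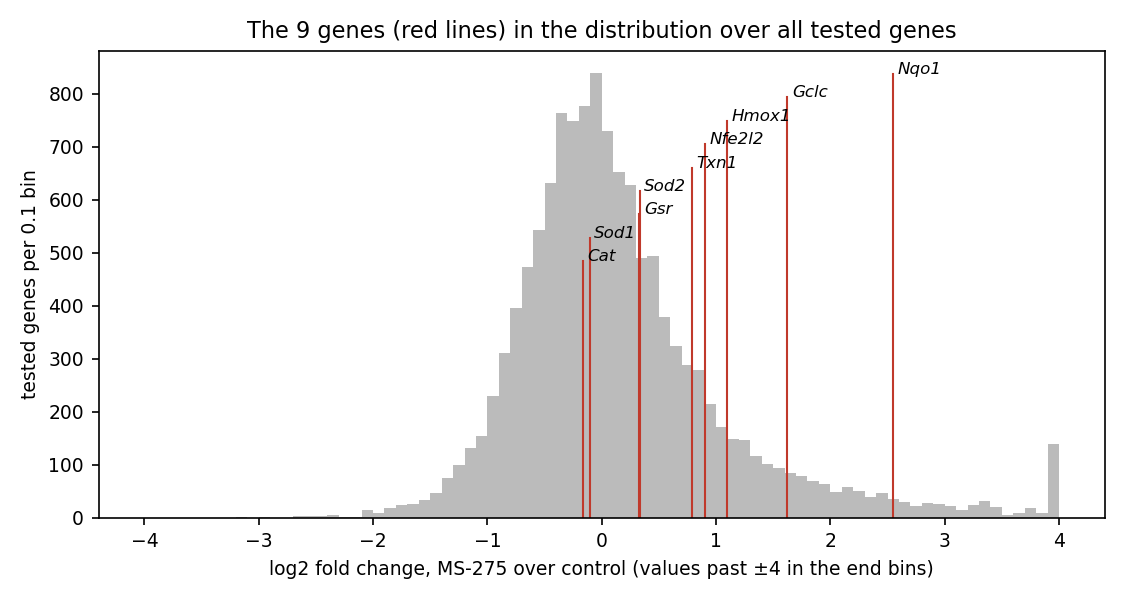
Histogram of the log2 fold change of MS-275 over control for all 12596 tested genes (grey, bins of 0.1), with the 9 genes as red lines whose height has no meaning. Nqo1 and Gclc lie in the upper tail, with 3.33% and 7.55% of tested genes above them, and Sod1 and Cat lie near the centre, just below the median of -0.01. Values past 4 are gathered in the last bin, and many of those genes have few control counts.

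Ratios of counts within a library do not depend on how libraries are scaled, and 4 were set by the roles of the genes. None could pass an adjusted p of 0.05, since 0.1 is the smallest p that 3 libraries against 3 allow. The ratio of Sod2 to Sod1 was 0.254, 0.262 and 0.228 in the controls and 0.340, 0.351 and 0.314 with MS-275, so every treated library was above every control. On the log2 scale it was -2.01 ± 0.10 (SD, n = 3) against -1.58 ± 0.08 (SD, n = 3), a difference of 0.44 (exact permutation test, two-sided p = 0.1, adjusted p = 0.133 over the 4 ratios). The difference was 0.50 without both displaced libraries. The ratio of Gclc to Gsr was 0.180, 0.224 and 0.216 in the controls and 0.514, 0.510 and 0.476 with MS-275. Its log2 means were the farthest apart beside their spread, -2.28 ± 0.17 and -1.0 ± 0.06 (SD, n = 3), a difference of 1.28 (exact permutation test, two-sided p = 0.1, adjusted p = 0.133). Control replicate 1 was here the library farthest from the treated ones, and MS-275 replicate 3 was close to the other treated libraries. Without both of these the difference was 1.22.

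The ratio of Hmox1 to Nqo1 was 3.63, 8.75 and 7.67 in the controls and 1.38, 1.90 and 3.44 with MS-275. The difference was -1.59 on the log2 scale (exact permutation test, two-sided p = 0.1, adjusted p = 0.133), between 2.64 ± 0.68 and 1.06 ± 0.67 (SD, n = 3). Control replicate 1 and MS-275 replicate 3 nearly met, at 3.63 and 3.44, and without them the difference was -2.34. The ratio of Txn1 to Nfe2l2 was 1.29, 1.19 and 1.10 in the controls and 1.33, 1.04 and 0.929 with MS-275. It overlapped between the groups, with a difference of -0.13 on the log2 scale (exact permutation test, two-sided p = 0.5, adjusted p = 0.5), and its sign turned to 0.045 without the displaced libraries.

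**Figure D4:**
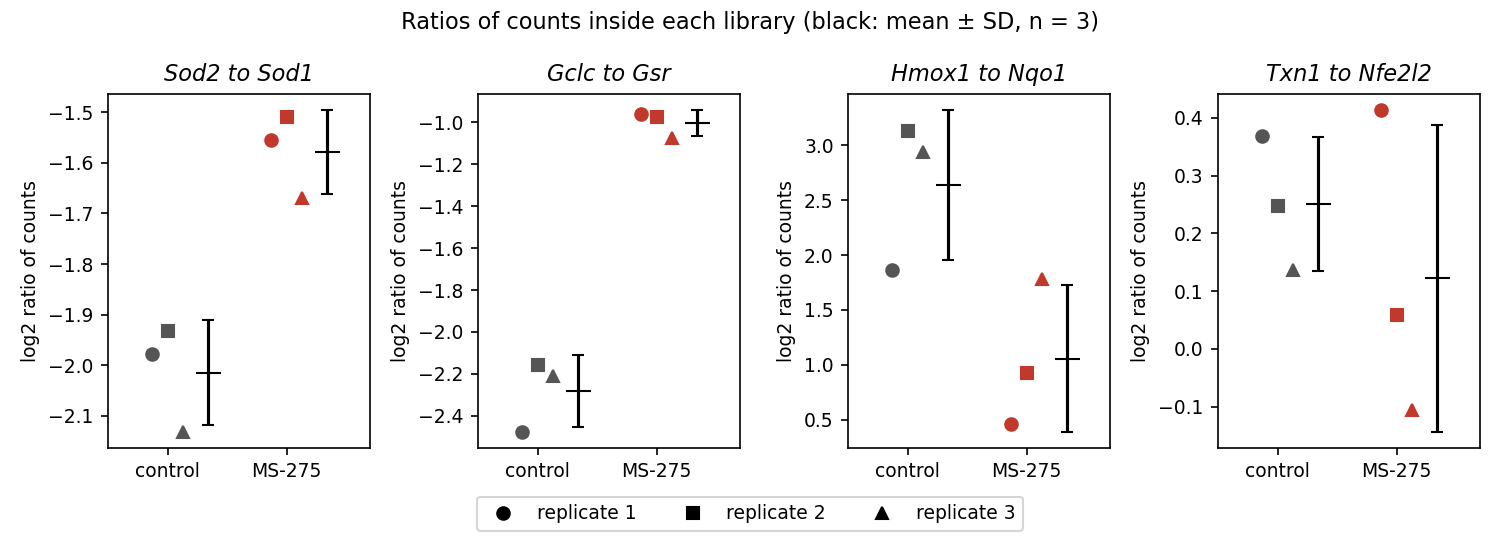
Log2 ratio of the raw counts of 2 genes within each library, for 3 control (grey) and 3 MS-275 libraries (red), with marker shape for the replicate number and black bars for the mean ± SD. Each panel has its own axis. Gclc to Gsr shows the groups 1.28 apart with little spread, and Txn1 to Nfe2l2 shows groups that overlap.

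From the highest log2 fold change to the lowest the order was Nqo1, Gclc, Hmox1, Nfe2l2, Txn1, Sod2, Gsr, Sod1 and Cat. The 95% intervals of each pair of neighbours in this order overlap, those of Gclc and Hmox1 only at their ends, 1.34 for both, and differences between neighbours were not tested other than by the ratios above. The interval of Gclc lies wholly above that of Nfe2l2, which ends at 1.07. The intervals of Sod1 and Cat lie below those of Sod2, Txn1, Nfe2l2, Hmox1, Gclc and Nqo1. Levels were not compared between genes, since transcript lengths on the assembly used for counting were not used here.

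Over the 6 libraries, the profile of Nfe2l2 was compared with that of 9916 other genes of at least 10 CPM, by the root mean square difference of log2 CPM centred on each gene's control mean. ENSRNOG00000008788 was the closest, at 0.0225, with 39.9 CPM in the controls and 73.9 with MS-275. ENSRNOG00000002227 came next at 0.0325, with 133 and 253 CPM. Both are listed without a name. Among the other 8 antioxidant genes Txn1 was the nearest to Nfe2l2, at 0.19, and Hmox1 the next, at 0.22, at places 592 and 786 of the list. Nqo1 was the farthest, at 1.42. This measure depends on the size of the change as well as on the spread between libraries.

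RefSeq's annotation of GRCr8 places other genes within the span of 3 of the 9, a pseudogene in Cat and long noncoding RNA genes in Hmox1 and Gsr. Whether the counts were made by strand is not stated, so reads of these genes and of an overlapping partner may not be separable. Over all genes, the tables set aside from 0.172% to 0.216% of their alignments as falling on more than 1 gene.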

How the data were processed

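RNA libraries of BRIN-BD11 cells (3 control, 3 MS-275) were sequenced as paired ends. The authors removed contaminant reads, aligned to Rnor_6.0 with STAR and deposited raw read counts per Ensembl gene. The submitters' processing notes name STAR 0.27 and Trimmomatic 0.36. Counting is credited to featureCounts in the methods, but each table closes with 5 lines in the format of htseq-count. These name no gene, hold between 68.6% and 70.8% of a table's alignments and were left out. Most of them are alignments that fell on no annotated gene, 14767557 in control replicate 1 against 7700713 on genes. The authors' own table of MS-275 against control (group means, fold changes, p-values) was not used.

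Genes were filtered with filterByExpr, scaled by TMM and tested with the quasi-likelihood test of edgeR 4.0.16 in R 4.3.3, with robust dispersions, no block and Benjamini-Hochberg adjustment over 12596 genes. Standard errors are the log2 fold change over the square root of F, and 95% intervals use the fit's degrees of freedom. The fits were tested on simulated data with the same dispersion for all genes and no displaced library. That test therefore does not cover a spread as wide as that of Nqo1 or the displaced libraries. Ratios were tested by exact permutation. Alternatives were library sizes alone, upper-quartile scaling, DESeq2 1.42.0, other filters, a replicate block, other thresholds and leaving out each library. Leaving out control replicate 1 and MS-275 replicate 3 together was added after seeing the data.

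The genes, lists and tests were chosen with earlier results of these data known. All 9 genes are named, and the 2 genes closest to Nfe2l2. Peroxiredoxins, glutathione peroxidases, other pathway lists and cell type markers need names for identifiers and were not analysed here. The RefSeq table holds 0 Ensembl identifiers. All 9 symbols are in it.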

Additional observations from a re-analysis of the deposited data

How the results depend on the processing

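Nqo1, Gclc, Hmox1, Nfe2l2, Txn1 and Sod2 kept their direction and an adjusted p under 0.05 in each of 12 alternatives. Gsr had a log2 fold change of 0.42 with upper-quartile scaling, 0.33 with DESeq2 and 0.33 with the replicate block, and passed in each. It was 0.63 without both displaced libraries, a choice made after seeing the data that widens the gap by construction. With each library left out in turn it was between 0.21 and 0.49, and Sod1 was between -0.19 and -0.046, so between 6 and 7 of the 9 genes were called higher and between 0 and 1 lower. The cause was not tested. A threshold of 1 on the absolute log2 fold change gave 1754 higher and 650 lower genes in place of 4039 and 3966, and 3 of the 9 genes higher, as follows from the stricter rule. Without both displaced libraries, the difference in the log2 ratio of Hmox1 to Nqo1 was -2.34 and that of Txn1 to Nfe2l2 was 0.045. The share of promoters holding TGACTCA was 4.63%, against 12.1% for TGACNNNGC. The median log2 fold change of all tested genes was -0.08 with library sizes alone, 0.08 with upper-quartile scaling and 0.12 with DESeq2, which tested 16846 genes. The replicate numbers are not said to pair libraries. Deviations from the group mean correlated over genes at 0.16, -0.02 and 0.13 between libraries of the same number. Between control replicate 2 and MS-275 replicate 3 the correlation was 0.15. Among the 9 genes, replicate 1 was mostly the highest and replicate 3 mostly the lowest in both groups. The replicate block lowered the SE of Nqo1 from 0.56 to 0.18 and that of Gsr from 0.14 to 0.08, whereas that of Nfe2l2 stayed at 0.08. Whether the numbers mark a shared culture was not tested. With the replicate block, 4142 genes were higher and 4113 lower. Of the 9 genes Nqo1 had the fewest counts, with 24 in control replicate 3. Its spread was also wide in the treated libraries, which held 332, 230 and 209 counts, with a coefficient of variation of 44.0% in CPM.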
